A study of Saccharomyces cerevisiae with 24 samples.

Results

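The 8 regions described here are origins of DNA replication long used as models in budding yeast (Saccharomyces cerevisiae): ARS305, ARS306 and ARS307 on chromosome III, ARS603, ARS606 and ARS607 on chromosome VI, ARS1 on chromosome IV and ARS522 on chromosome V. The rule that chose them goes by their names in the literature and uses no measured value. They are 8 of the 352 annotated origins of the genome, and with flanks of 15 kb on each side they cover 248 of the 11328 bins of 1 kb in the tables. Of these, 242 had a value in all 22 tables; the other 6 lie 11 to 15 kb to the right of ARS306 and 10 kb to the right of ARS1.

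Copy number was measured by whole-genome sequencing of 2 strains passing through a single synchronous S-phase. Both strains have the W303 background and are MATa, with the alleles ade2-1 and ura3-1, his3-11, 15 and trp1-1, then leu2-3, 112 and can1-100, and rad5-535, and neither has SML1, the gene of a protein that inhibits ribonucleotide reductase. In the control strain, sml1Δ, the deletion is marked with URA3, and in the other, sml1Δ SSDDCS, it is marked with HphNT. SSDDCS also carries 3 insertions in which the divergent galactose promoter PGAL1-10 drives pairs of replication initiation factors: Sld7 with Cdc45 at leu2, SLD3-A with Dbf4-A at his3, and Sld2 with Dpb11 at trp1. In both strains the cells were arrested in G1 with alpha factor, given galactose for 30 min and released into medium with galactose. Each strain had 1 G1 library, used as the denominator of every ratio, and 1 library at each of 11 time points (5 to 60 min after release), 24 samples in all. With 1 library per strain and time point and 1 time course per strain, the difference between strains has no replicate check and no p-value is given.

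An origin is licensed in G1 by loading of the Mcm2-7 helicase at a short element that the origin recognition complex binds, and fires in S-phase when the kinases DDK and CDK act and Cdc45 and the GINS complex join the helicase. Sld2, Sld3 and Dpb11 carry the CDK step, Dbf4 is the activating subunit of DDK, and Sld7 is the partner of Sld3. These factors are scarce in yeast, and origins differ in how early they recruit them. The 6 origins ARS305, ARS306, ARS307, ARS606, ARS607 and ARS1 are textbook early origins, whereas ARS603 and ARS522 (also known as ARS501) are textbook late origins. The annotation of ARS522 says that its late firing appears to come from its place near the chromosome end, which was not tested here. Once an origin fires, a pair of forks moves outward, so DNA in its flanks is copied after the origin unless another origin lies nearby.

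The element in yeast origins is the ARS consensus sequence (ACS), a T-rich motif of 11 letters named here by its name alone. It is shown for the 8 origins because it is where licensing begins and because early and late origins can be set side by side. Each line gives the T-rich strand, 5′ to 3′, with 10 bases before the best match to the ACS, the match itself in capitals, and 40 bases after it, from RefSeq's copy of the R64 assembly, which is of S288C and not of W303.
ARS305: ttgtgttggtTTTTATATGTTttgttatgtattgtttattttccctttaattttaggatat
ARS306: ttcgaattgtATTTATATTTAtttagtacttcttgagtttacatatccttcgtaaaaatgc
ARS307: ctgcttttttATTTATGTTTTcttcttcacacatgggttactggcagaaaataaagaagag
ARS606: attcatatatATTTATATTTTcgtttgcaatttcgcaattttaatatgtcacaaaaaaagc
ARS607: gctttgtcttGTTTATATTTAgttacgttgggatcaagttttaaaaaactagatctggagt
ARS1: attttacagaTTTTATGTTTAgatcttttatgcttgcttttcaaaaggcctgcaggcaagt
ARS603: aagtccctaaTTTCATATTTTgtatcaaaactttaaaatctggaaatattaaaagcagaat
ARS522: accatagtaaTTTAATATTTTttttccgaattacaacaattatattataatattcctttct
The stretches lie at chrIII:39541-39601, minus strand (ARS305), chrIII:74511-74571, plus strand (ARS306), chrIII:108920-108980, minus strand (ARS307), chrVI:167686-167746, minus strand (ARS606), chrVI:199406-199466, plus strand (ARS607), chrIV:462556-462616, minus strand (ARS1), chrVI:68805-68865, minus strand (ARS603) and chrV:549634-549694, minus strand (ARS522).

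A search of both strands found a full match to the ACS inside 4 of the 8 annotated origins, ARS306, ARS307, ARS606 and ARS1, and in each of these there was 1. In ARS305, ARS607, ARS603 and ARS522 the best match had 10 of 11 letters; ARS305 held 2 places of equal match, of which 1 is shown. Of all annotated origins, 124 of 352 (35.2%) held a full match, and of stretches of the same lengths laid side by side over the genome, between 0.308% and 2.1% did. The 4 full matches all belong to early origins, but ARS305 and ARS607 are early and have none. The A+T content was between 65.9% in ARS307 and 80.7% in ARS305, with 78.6% in ARS603 and 71.5% in ARS522, against a median of 70.2% over annotated origins.

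ARS305, ARS306, ARS603, ARS606 and ARS1 are intergenic in the R64 annotation. ARS305 (chrIII:39508-39595) lies between APA1 and YCL049C, ARS306 (chrIII:74458-74677) between HBN1 and FRM2, ARS603 (chrVI:68759-68861) between MIL1 and RIM15, and ARS606 (chrVI:167547-167801) between SUP11 and DCV1. ARS1 (chrIV:462567-462622) lies between TRP1, whose end is 50 bases away, and GAL3. ARS307 (chrIII:108727-109060) overlaps LDB16, ARS607 (chrVI:199395-199505) overlaps RUF22, and ARS522 (chrV:549566-549814), 27.2 kb from the end of its chromosome, overlaps ISC10. The labels place the Sld2 and Dpb11 insertion of SSDDCS at trp1, so beside ARS1, and the Sld7 and Cdc45 insertion at leu2, which lies 16.6 kb from ARS306 and 16.3 kb from ARS307 and so just outside their flanks. The control strain has neither insertion.

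The level of an origin is the mean copy number of the 5 bins centred on it, a window of 5 kb. Copy number is the ratio of reads to G1, scaled by the authors with a bulk factor from flow cytometry, so that the mean of a whole table follows flow cytometry and only the differences between regions within a table come from the reads. The tables hold no read counts, so the depth is unknown. As a measure of error, the noise of a library between neighbouring windows was 1.76% to 2.48% of the median over its bins in sml1Δ and 2.27% to 2.82% in SSDDCS. A difference is called beyond the limits where it lies outside the 95% limits of this error; since all time points of a strain share a G1 library, its noise is repeated in each. Trep, the time at which a sigmoid rising from 1 to 2 copies reached 1.5 copies, was fitted for each window. The error of Trep between neighbouring windows was 0.628 min (sml1Δ), 1.03 min (SSDDCS) and 1.09 min for the difference, which gives limits of 2.13 min. All differences are SSDDCS minus sml1Δ.

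The early and the late model origins stood apart in sml1Δ and mostly overlapped in SSDDCS. At 25 min after release, the 6 early origins had between 1.95 and 2.04 copies in sml1Δ, while ARS603 had 1.57 and ARS522 had 1.64. In SSDDCS at the same time the early origins had between 1.78 and 1.87 copies, ARS603 had 1.81 and ARS522 had 1.78. In sml1Δ every early origin was above both late origins at 20, 25, 30, 35 and 40 min; in SSDDCS this was so at 30 min alone, where the early origins had 1.88 to 1.92 copies and the late origins 1.82 and 1.87.

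The mean of the early origins minus that of the late origins is set by the reads within a table and changes only in proportion to the bulk factor. In sml1Δ this gap was 0.0306 ± 0.0189, 0.224 ± 0.0236, 0.374 ± 0.0266, 0.256 ± 0.0295 and 0.121 ± 0.0271 copies at 15, 20, 25, 30 and 35 min (± the window noise, 1 library each). In SSDDCS the gap was 0.0114 ± 0.0294, 0.0638 ± 0.033, 0.0307 ± 0.0339, 0.0526 ± 0.0357 and 0.0405 ± 0.0386 at the same times. The largest gap, at 25 min, was thus smaller in SSDDCS (difference -0.343 ± 0.0431 copies). At 40 min the gap was 0.103 ± 0.0314 copies (sml1Δ) and 0.0812 ± 0.0397 copies (SSDDCS). From 45 min on the gap was between -0.0226 and 0.0208 copies in both strains. At 5 min, with little DNA copied, the gap was -0.04 ± 0.0146 copies in sml1Δ, beyond its 95% limits, and -0.0076 ± 0.0199 in SSDDCS. The window noise thus does not cover every offset between the 2 sets of origins. In Trep, the late origins followed the early ones by 4.30 ± 0.513 min in sml1Δ but by 1.11 ± 0.838 min in SSDDCS, with a difference of -3.19 ± 0.983 min. The gap to ARS603 went from 5.24 to 0.383 min, a difference of -4.85 ± 1.3 min, and that to ARS522 from 3.36 to 1.84 min, a difference of -1.52 ± 1.3 min, which is within its 95% limits. A scale fitted for each window multiplies both levels of the sigmoid. With it, the change in the gap was -4.09 ± 0.897 min for ARS603 and -3.88 ± 0.897 min for ARS522. The smaller change at ARS522 thus depended on fixing both levels, at 1 and 2 copies. Without ARS1 among the early origins, the gap was 4.19 min (sml1Δ) and 1.4 min (SSDDCS).

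**Figure D1:**
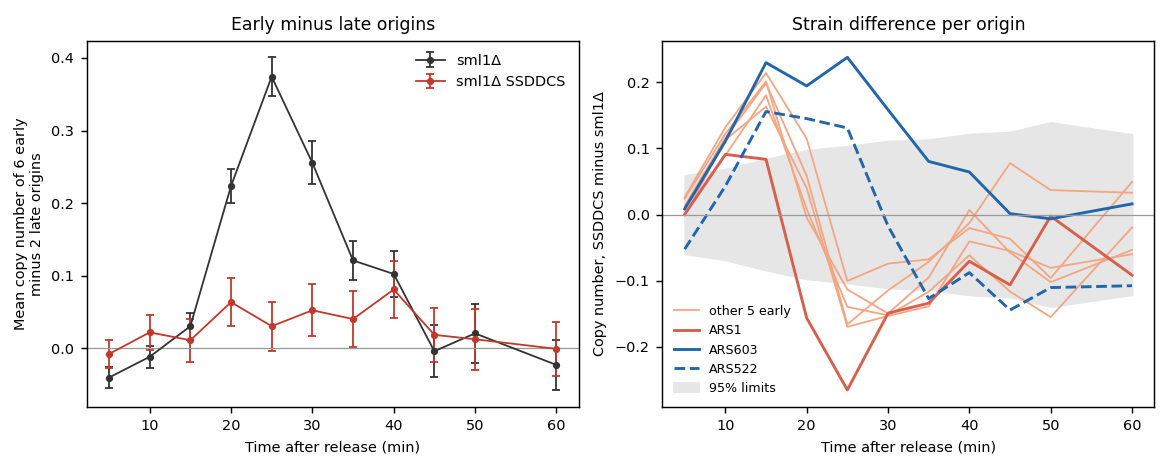
Left, mean copy number of the 6 early minus the 2 late model origins (y axis, copies) against time after release (x axis, min) in sml1Δ (black) and SSDDCS (red); bars, window noise, 1 library per point. Right, copy number in SSDDCS minus sml1Δ for each origin, with 95% limits at ARS1 in grey. The early to late gap peaks at 0.374 copies in sml1Δ at 25 min and stays at or below 0.0812 in SSDDCS, and at 25 min the early origins lie below 0 and the late origins above it.

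The Trep order followed the same pattern. In sml1Δ the order was ARS1, ARS607, ARS305, ARS306, ARS307, ARS606, ARS522 and ARS603, from 17.7 to 23.5 min. The first 6 lay within 1.36 min of each other, less than the limits between a pair of windows (1.74 min), so their order cannot be told; ARS522 followed ARS606 by 2.57 min and ARS603 followed ARS522 by 1.87 min, both beyond those limits. In SSDDCS the order was ARS607, ARS305, ARS606, ARS307, ARS306, ARS603, ARS1 and ARS522, from 16.6 to 19.3 min. Its first and last members were 2.70 min apart, within the limits between windows of 2.84 min, so none of the 8 could be ordered by Trep. These limits were wider than the 1.74 min of sml1Δ because the windows of SSDDCS were noisier. The 2 strains were thus not resolved equally finely. The names early and late therefore held in sml1Δ for these 8, but ARS522 was in the middle of the range on the scale of the genome: 170 of the 305 annotated origins with a Trep in both strains were earlier than ARS522 in sml1Δ, and 225 were earlier than ARS603.

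Trep was earlier in SSDDCS at 7 of the 8 origins (93.8% of annotated origins were earlier by any amount) and later at ARS1, but only ARS603 (-5.68 min) and ARS522 (-2.35 min) passed the limits. That is 2 of 8 earlier beyond the limits, where 64.9% of annotated origins and 54.4% of all windows were; none of the 8 was later beyond the limits, where 0% of annotated origins and 2.47% of windows were. The difference was -0.995 min at ARS305, -0.777 at ARS306, -1.19 at ARS307, -1.98 at ARS606, -1.2 at ARS607 and 1.18 at ARS1. Over the 305 annotated origins the median difference was -2.91 min. The Trep of the median origin went from 21.3 min (sml1Δ) to 18.0 min (SSDDCS), a shift of -3.28 min, and of the 8 model origins ARS603 alone had a more negative difference than that. The sign at ARS305, ARS306, ARS307, ARS606, ARS607 and ARS522 depended on the bulk factors: with the factors of sml1Δ applied to both strains it was positive at all 6 of them (0.15 to 1.77 min), while ARS603 remained earlier and ARS1 later. With a scale fitted for each window, 6 of 8 origins were earlier beyond the limits and the difference at ARS1 was 0.114 min.

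**Figure D2:**
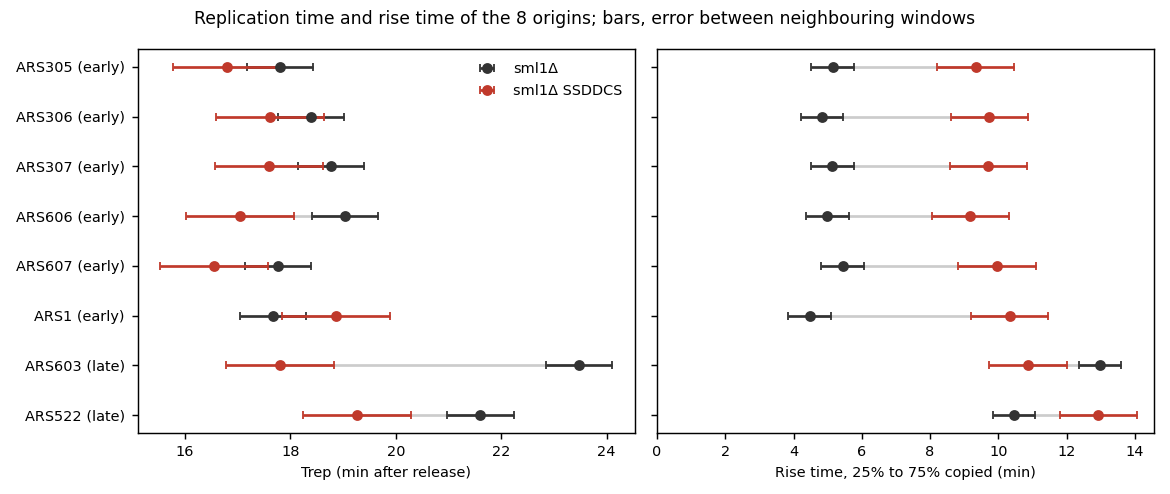
Trep (left, x axis, min after release) and rise time from 25% to 75% copied (right, x axis, min) of the 8 origins in sml1Δ (black) and SSDDCS (red), 1 time course per strain; bars, error between neighbouring windows. Trep of ARS603 moves from 23.5 to 17.8 min, and the rise time of each of the 6 early origins goes from 5.44 min or less to 9.17 min or more.

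ARS305, an efficient early origin, had 1.01, 1.05, 1.24, 1.7, 2.0, 2.05 and 2.03 copies in sml1Δ at 5, 10, 15, 20, 25, 30 and 35 min, and between 2.01 and 2.11 from 40 to 60 min. In SSDDCS its copy number was 1.01, 1.14, 1.42, 1.71, 1.86, 1.9 and 1.92, then between 1.93 and 1.99. With the deposited bulk factors, SSDDCS was thus higher at 10 and 15 min and equal within the noise at 20 min. It was lower at 25 and 30 min (differences of -0.14 and -0.152 copies). These deficits at ARS305 were within the limits (-0.0464 and -0.0569 copies) once each window was divided by its own level at 45, 50 and 60 min. Its Trep was 17.8 ± 0.425 min (sml1Δ) and 16.8 ± 0.543 min (SSDDCS; ± SE of the fit), with 2 and 45 of the other annotated origins earlier.

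ARS306, the next origin of chromosome III in this group, had 0.993, 1.01, 1.19, 1.66, 1.99, 2.03 and 2.03 copies in sml1Δ at 5, 10, 15, 20, 25, 30 and 35 min and between 1.99 and 2.03 later. The SSDDCS values were 0.992, 1.13, 1.36, 1.7, 1.82, 1.88 and 1.9, and later between 1.93 and 1.97. The difference was 0.163 at 15 min and -0.17 at 25 min, both beyond the limits and of opposite sign. Trep was 18.4 ± 0.202 and 17.6 ± 0.687 min.

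ARS307, which lies 6 bins from CEN3 and ARS308, had 0.99, 1.01, 1.19, 1.61, 1.95, 2.04 and 2.04 copies in sml1Δ at 5, 10, 15, 20, 25, 30 and 35 min and between 1.95 and 2.05 later, against 1.0, 1.12, 1.38, 1.67, 1.79, 1.92 and 1.97 and then between 2.03 and 2.04 in SSDDCS. Its difference was 0.199 copies at 15 min, and at 25 min it was lower beyond the limits (-0.166). Its copy number from 45 min on was higher in SSDDCS than in sml1Δ, by 0.0778, 0.037 and 0.033 copies, all within the limits. Trep was 18.8 ± 0.279 and 17.6 ± 0.458 min.

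ARS607 is annotated as active very early and in most cell cycles, and ARS606 as early. ARS607 had 1.0, 1.04, 1.26, 1.7, 1.9602, 2.03 and 2.07 copies in sml1Δ at 5, 10, 15, 20, 25, 30 and 35 min, and between 2.03 and 2.09 from 40 min. In SSDDCS its values were 1.03, 1.16, 1.46, 1.7, 1.85, 1.88 and 1.97, and between 1.98 and 2.03 from 40 min. At 15 min ARS607 had the highest copy number of the 8 in both strains, with 19 of 305 annotated origins above it in sml1Δ and 15 in SSDDCS. Its Trep was 17.8 ± 0.44 and 16.6 ± 0.457 min, and it was the earliest of the 8 in SSDDCS, though within the limits.

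ARS606 had 1.01, 1.01, 1.16, 1.59, 1.97, 1.962 and 2.02 copies in sml1Δ at 5, 10, 15, 20, 25, 30 and 35 min and between 1.95 and 2.05 later, and 1.03, 1.14, 1.37, 1.7, 1.87, 1.89 and 1.956 and then between 1.95 and 2.02 in SSDDCS. It was the last of the early origins in sml1Δ (19 ± 0.292 min) and the third of the 8 in SSDDCS, where the order was within the limits (17.1 ± 0.381 min). At 20 min ARS606 alone of the 6 early origins was higher in SSDDCS beyond the limits (0.115 copies, limit 0.0973), and at 25 min it alone was not lower beyond them (-0.10, limit 0.103).

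ARS1, the first chromosomal replicator isolated in yeast, had the largest difference between strains of the 6 early origins at 20 and 25 min. In sml1Δ it had 1.02, 1.04, 1.22, 1.74, 2.04, 2.06 and 2.07 copies at 5, 10, 15, 20, 25, 30 and 35 min and between 2.0 and 2.07 later. In SSDDCS it had 1.02, 1.13, 1.3, 1.58, 1.78, 1.92 and 1.94, and between 1.94 and 2.0 later. Its copy number was lower in SSDDCS beyond the limits at 20 min (difference -0.156) and at 25 min (-0.265); with each window divided by its own level at 45, 50 and 60 min and set to 2 copies there, ARS1 had 1.71 copies (sml1Δ) and 1.61 copies (SSDDCS) at 20 min, again lower beyond the limits. At 20 min no annotated origin of 305 had a higher copy number than ARS1 in sml1Δ, while 233 had one in SSDDCS; these ranks do not depend on the bulk factors. With the deposited bulk factors, ARS1 was the only annotated origin lower in SSDDCS beyond the limits at 20 min (0.328% of 305), while 78% were higher. In sml1Δ its Trep was 17.7 ± 0.431 min, the earliest of the 305, and it was 18.9 ± 0.335 min in SSDDCS, with 210 earlier. In SSDDCS the earliest window of its flanks lay 4 kb to the right of ARS1, with a Trep of 17.1 min. Its lead over ARS1 was within the limits between windows (2.84 min). At 20 min the deficit was not even across the 5 bins of ARS1. Bins at -2, -1, 0, 1 and 2 kb had 1.588, 1.578, 1.438, 1.603 and 1.702 copies in SSDDCS. In sml1Δ they had 1.811, 1.672, 1.741, 1.765 and 1.702. The Trep difference was 1.41 and 1.76 min in windows 2 and 1 kb to the left. In windows 2 to 6 kb to the right it was between -0.83 and -0.15 min. All of these Trep differences were within the limits. The insertion at trp1 that SSDDCS carries and the over-expression cannot be told apart at this origin.

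Against these, the late origin ARS603 was higher in SSDDCS through most of S-phase. ARS603 had 1.03, 1.01, 1.17, 1.43, 1.57, 1.71 and 1.86 copies in sml1Δ at 5, 10, 15, 20, 25, 30 and 35 min, and between 1.91 and 2.02 from 40 min. In SSDDCS it had 1.04, 1.13, 1.4, 1.63, 1.81, 1.87 and 1.94, and between 1.98 and 2.03 from 40 min. The difference passed the limits at 10, 15, 20, 25 and 30 min and was largest at 25 min (0.238 copies). At 25 min, 241 of 305 annotated origins had a higher copy number than ARS603 in sml1Δ and 120 in SSDDCS. Trep was 23.5 ± 0.573 and 17.8 ± 0.391 min, and 48 of 305 origins had a more negative difference.

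ARS522 was higher in SSDDCS at 15, 20 and 25 min but, unlike ARS603, not at 10 or 30 min beyond the limits. ARS522 already stood high in sml1Δ at 5 min, with 8 of 305 annotated origins above it, against 228 in SSDDCS (difference -0.0524 copies, within the limits). It had 1.05, 1.06, 1.19, 1.45, 1.64, 1.84 and 1.98 copies in sml1Δ at 5, 10, 15, 20, 25, 30 and 35 min and between 1.959 and 2.06 later, against 1.0, 1.1, 1.34, 1.6, 1.78, 1.82 and 1.85 and then between 1.87 and 1.95 in SSDDCS. The difference was 0.145 copies at 20 min and 0.131 at 25 min, then -0.0172 at 30 min and -0.127 at 35 min, where SSDDCS was lower beyond the limits. This change of sign went with the later level of ARS522, which was lower in SSDDCS: with each window divided by its own level at 45, 50 and 60 min, the difference was 0.0946 copies at 30 min, higher beyond the limit of 0.0899, and -0.0106 at 35 min, within the limits. At 40 min 284 of 305 annotated origins had a higher copy number in SSDDCS, against 179 in sml1Δ. Trep was 21.6 ± 0.463 and 19.3 ± 0.998 min, and 230 origins were earlier in SSDDCS.

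**Figure D3:**
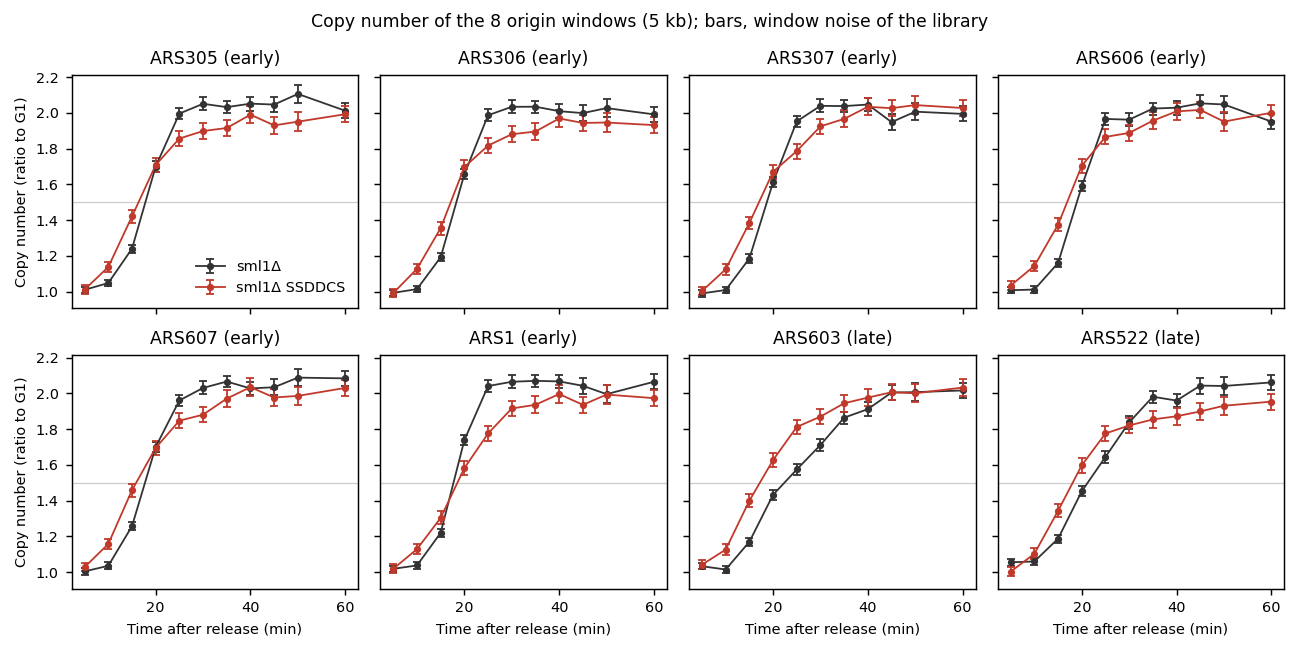
Copy number (y axis, ratio to G1 scaled by the bulk factor) of the 5-kb window at each of the 8 origins against time after release (x axis, min) in sml1Δ (black) and SSDDCS (red); each point is 1 library and bars are its window noise. At the 6 early origins the SSDDCS curve lies above the control at 10 and 15 min and below it at 25 min, while at ARS603 it lies above the control from 5 to 45 min.

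With the deposited bulk factors, the strains crossed between 15 and 25 min at the 6 early origins. ARS603 and ARS522 were still higher in SSDDCS at 25 min. At 5 min none of the 8 differed beyond the limits. At 10 min 7 of 8 were higher in SSDDCS beyond the limits (86.9% of annotated origins), and at 15 min 7 of 8 (98.4%). These calls depend on the bulk factors, which were 1.021 (sml1Δ) and 1.107 (SSDDCS) at 10 min, and 1.139 and 1.28 at 15 min. Relative to the median of the table, the mean of the early origins was 1.005 (sml1Δ) and 1.027 (SSDDCS) at 10 min. At 15 min it was 1.06 and 1.08. At 20 min 3 were higher (ARS606, ARS603 and ARS522; 78% of annotated origins) and ARS1 was lower (0.328%). At 25 min ARS603 and ARS522 were higher (38.7%) and 5 of the 6 early origins were lower (17% of annotated origins). At 30 min ARS603 was higher (18.7%) and 5 early origins were lower (18.7%; ARS305, ARS306, ARS307, ARS607 and ARS1). At 35 min 4 were lower (ARS305, ARS306, ARS1 and ARS522; 11.8%), and after that only ARS522 at 45 min (7.21%) and ARS305 at 50 min (4.59%).

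The deficit of the early origins at 25 and 30 min was of the same sign with other scalings, but its size and the number of calls varied. Its median over the 6 came to -0.153 copies at 25 min and -0.149 at 30 min with the deposited ratio, and to -0.0911 and -0.0814 when each window was divided by its own level at 45, 50 and 60 min. With that division, chosen after seeing the data, 3 early origins were lower beyond the limits at 25 min (ARS306, ARS307 and ARS1; 11.1% of annotated origins) in place of 5, and 2 at 30 min (ARS306 and ARS307; 16.7%) in place of 5. ARS306 only just passed at 30 min (-0.09 copies, limit 0.0899). Relative to the median of the table, the mean of the early origins at 25 min was 1.24 (sml1Δ) and 1.08 (SSDDCS), while at 15 min it was 1.06 and 1.08. So the early origins stood less far above the genome in SSDDCS at 25 min, and about as far at 15 min.

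The rise of copy number was also drawn out at the early origins in SSDDCS. The rise time is the time the fitted sigmoid took from 25% to 75% of the step between 1 and 2 copies, a measure added after the copy numbers were seen. In sml1Δ and SSDDCS in turn, it was 5.15 and 9.34 min at ARS305, 4.83 and 9.74 at ARS306, 5.14 and 9.7 at ARS307, 4.99 and 9.17 at ARS606, 5.44 and 9.96 at ARS607, and 4.47 and 10.3 at ARS1. At ARS603 it was 13 and 10.9 min, and at ARS522 10.5 and 12.9 min, both within the limits of 2.55 min. All 6 early origins were longer in SSDDCS beyond those limits, or 6 of the 8, where 47.5% of annotated origins were. The increase was not particular to them: between 32 (ARS1) and 70 (ARS606) of 305 annotated origins had a larger one. The 6 also began among the shortest rises in sml1Δ, with 0 (ARS1) to 17 (ARS607) annotated origins shorter, so the 47.5% is not from origins matched to them. In sml1Δ the early and late origins did not overlap in rise time (at most 5.44 against at least 10.5 min), and in SSDDCS they lay closer (at most 10.3 against at least 10.9 min), nearer than the error of a window of 1.13 min. Samples were 5 min apart, so the rise times of the early origins in sml1Δ were about as long as the spacing of the samples, and without the 15 min libraries their median was 3.97 min in place of 5.06 min.

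The flanks of the early origins changed little in Trep, while those of ARS603 and ARS522 were, with the deposited bulk factors, earlier in SSDDCS along nearly all of their length. At ARS603 all 31 windows within 15 kb were earlier beyond the limits, with differences from -7.05 to -2.71 min. At ARS522 it was 30 of 31. At ARS607 3 windows were earlier beyond the limits, the most negative 3 kb to its right (-2.72 min), and at ARS305, ARS306, ARS307, ARS606 and ARS1 none. In all, 64 of 242 windows (26.4%) were earlier beyond the limits against 54.4% over the genome, and 3 (1.24%) were later against 2.47%. The 3 later windows were all around ARS307, at 15 kb to its left (2.49 min) and at 8 and 9 kb to its right (2.17 and 2.59 min). The window of ARS308 and CEN3, 6 bins to the right of ARS307, went from 18.9 to 19.9 min, within the limits. ARS304, 9 bins to the left of ARS305, had a Trep of 19.5 min (sml1Δ) and 19.6 min (SSDDCS), and CEN4, 13 bins to the left of ARS1, of 19.5 and 20.1 min.

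The delay from an origin to its flank is the Trep of the window 11 to 15 kb away minus that of the origin. It does not tell from which origin the forks that copied the flank came. The median delay over the 15 sides with a value was 1.86 min (sml1Δ) and 2.61 min (SSDDCS), and 11 of the 15 were longer in SSDDCS, although the medians differed by less than the error of a window in SSDDCS. The order of the medians was not stable: with a single bin it was 2.18 min (sml1Δ) against 1.41 min (SSDDCS), and without the 20 min libraries it was 2.99 against 2.98 min. At ARS606 the flanks followed in sml1Δ by 1.16 min (left) and 0.643 min (right) but in SSDDCS by 3.67 and 3.05 min, with flank Trep itself within 0.518 min of the control. ARS603 had flank delays of 3.21 and 3.69 min (sml1Δ) and of 4.24 and 4.73 min (SSDDCS). On the right of ARS522, toward the chromosome end, the flank was earlier than the origin in both strains (-0.737 and -0.528 min), and the earliest window of its profile lay at the edge, 15 kb away, in both. These leads, and that of the window at the edge over ARS522 (20.7 against 21.6 min in sml1Δ, and 17.3 against 19.3 min in SSDDCS), were within the limits between windows. On the right of ARS1 the flank followed ARS1 by 2.09 min in sml1Δ. In SSDDCS the flank preceded ARS1 (-0.842 min), but within the limits between windows.

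**Figure D4:**
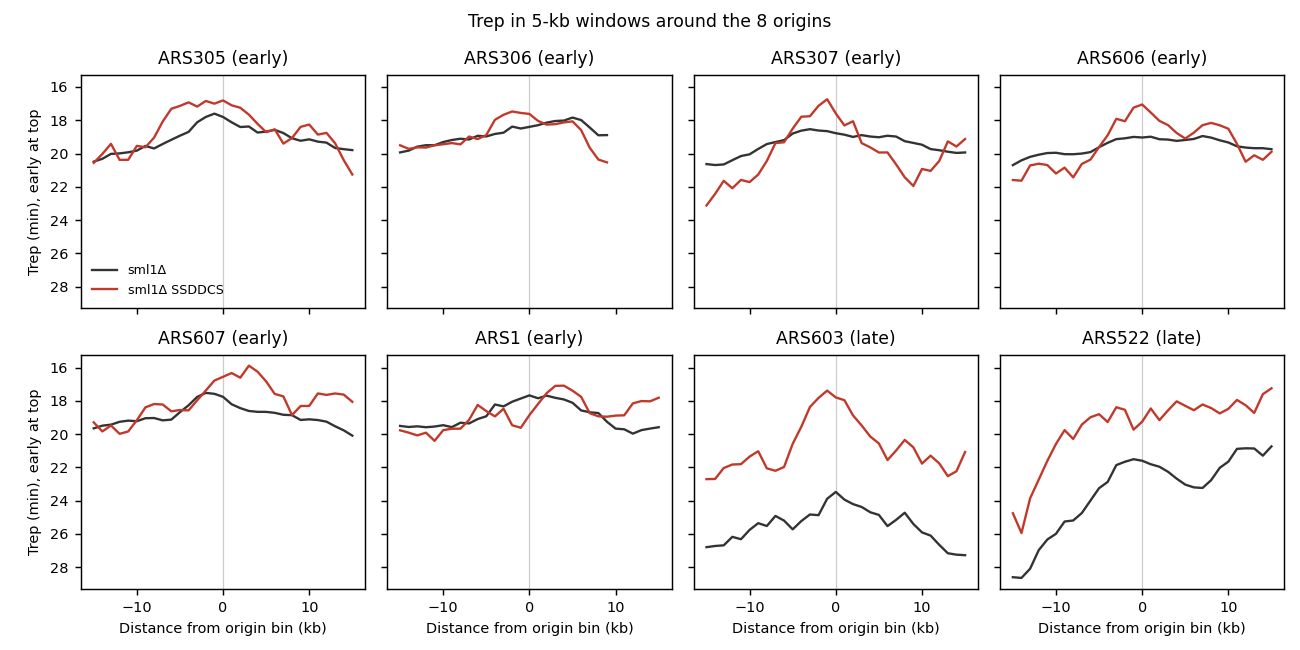
Trep (y axis, min after release, inverted so that early is at the top) of 5-kb windows against distance from the origin's bin (x axis, kb) for the 8 origins in sml1Δ (black) and SSDDCS (red), 1 fit per window and strain. The red curve lies above the black along the whole of ARS603 and ARS522, and crosses it within 15 kb at the other 6.

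Origins with the most similar course over the 22 libraries were sought among annotated origins at least 30 kb away, by the root mean square difference of copy number. ARS305 and ARS607 were each other's nearest (0.0318 copies), although they lie on different chromosomes. The nearest to ARS603 was ARS1608 on chromosome XVI (0.0242 copies), with a Trep of 23.6 min (sml1Δ) and 17.7 min (SSDDCS). The nearest to ARS306 was ARS415 (0.030), to ARS307 ARS510 (0.0342), to ARS606 ARS1109 (0.0387) and to ARS522 ARS702 (0.0373). Their Trep in sml1Δ and SSDDCS in turn was 18.2 and 17.2 min (ARS415) and 19.1 and 17.4 min (ARS510). It was 19.2 and 17.1 min at ARS1109, and 21.5 and 18.1 min at ARS702. ARS1 was the least well matched of the 8, with ARS306 at 0.0483 copies; the median over all origins compared with it was 0.12 copies. Among the other 76 annotated origins of chromosomes III, IV, V and VI, 46 were earlier in SSDDCS beyond the limits and 0 later (median difference -2.9 min), against 2 and 0 of the 8 model origins. The 2 sets were not matched for timing: their median Trep in sml1Δ was 21.5 min (the 76) and 18.6 min (the 8).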

How the data were processed

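Replication was followed in 2 strains by whole-genome sequencing of genomic DNA, with strains and times as the sample titles give them. Per the labels and methods, the authors mapped reads with Bowtie2 (2.2.6) to the S288C genome (sacCer3, the R64 assembly), used SAMtools (1.7.2) and bedtools (2.26.0), and took reads with a unique place per 1-kb bin. The deposited values are, per bin, a ratio of reads at a time point to reads in G1 of the same strain, multiplied by the authors with a bulk factor between 1 and 2 from flow cytometry. Depth is unknown, as read counts were not used here.

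Bins of a 5-bin window were averaged (at least 4 with a value). A sigmoid from 1 to 2 copies was fitted by least squares (NumPy 2.4.6, Python 3.11.15) to each of the windows of the genome. Fits were kept with 9 or more time points, a Trep between 5 and 60 min and an SE up to 5 min for each strain. This left 11155 windows and 305 of 352 annotated origins (RefSeq, R64). Window errors came from the differences among 3 windows side by side. Calls are rules of size and not tests. The Trep fit was tested on simulated data with a single size of shift, the same rise times in both strains and levels of 1 and 2 copies. Differences between strains in rise time or in final level were not simulated. The origins and lists were chosen with earlier results of these data known. Named besides the 8 origins were origins and centromeres in their flanks, genes beside them, TRP1 and LEU2, and the most similar origin of each. Alternatives covered window size, the shape of the fit, the bulk factors, the centring, the error and each time point left out.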

Additional observations from a re-analysis of the deposited data

How the results depend on the processing

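ARS603 was earlier in SSDDCS beyond the limits in all 17 alternatives (-6.20 to -2.40 min). ARS1 was later in all 16 that gave a value (0.114 to 4.54 min), but only 2 of these passed the limits. These were the sml1Δ factors in both strains (3.53 min) and the difference relative to the median annotated origin (4.46 min). Without 15 min the fit of ARS1 was not kept, and the early to late gap in Trep was then not computed. Origins earlier beyond the limits numbered 2 and became 1 with a single bin, with 3 bins and with the sml1Δ factors in both strains, 4 with the SE of the fits as error, 5 with linear interpolation and 6 with a scale fitted per window, and 1 to 3 with a time point left out. With the sml1Δ factors the Trep difference was 1.64 min at ARS305, 1.77 at ARS306, 1.37 at ARS307, 0.538 at ARS606, 1.55 at ARS607 and 0.15 at ARS522, all reversed. Relative to the median annotated origin, which removes the shift of -3.28 min, it was 2.28, 2.5, 2.09, 1.29, 2.07 and 0.931 min at the same origins. It was 0.525 at ARS306 and 0.25 at ARS606 with a single bin, and 0.112 at ARS305 and 1.17 at ARS306 without 20 min. ARS522 passed the limits no more with a single bin, 3 bins or without 20 or 25 min (-3.88 to -1.29 min), and was -5.59 min with a scale fitted per window. With a time point left out, ARS305 ranged from -1.3 to 0.112 min and ARS306 from -1.49 to 1.17 min.

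The late minus early gap in Trep in sml1Δ was 3.61 min with interpolation, 3.36 with ARS522 alone and 5.24 with ARS603 alone, and 4.06 to 5.59 with a time point left out. In SSDDCS it was 0.0503 with a single bin, and 0.931 to 1.66 with a time point left out. The change between strains was -4.36 with a single bin, -1.52 with ARS522 alone and -4.85 with ARS603 alone, and -4.46 to -2.49 with a time point left out. With a single bin the copy number gap in SSDDCS was 0.0115 at 20 min and 0.0673 at 25 min, and its change between strains -0.234 and -0.290. Flank delay was shorter in SSDDCS with a single bin (2.18 min in sml1Δ, 1.41 in SSDDCS) and nearly equal without 20 min (2.99 and 2.98). In sml1Δ it was 1.14 to 2.99 min, and in SSDDCS 2.13 to 3.34 min, with a time point left out. The median rise time of early origins was 3.97 to 5.36 min in sml1Δ and 9.0 to 10.3 min in SSDDCS with a time point left out, and 12.1 min in SSDDCS with a single bin. The cause of these changes was not tested unless stated. The alternatives for rise time and for copy number at 25 and 30 min were chosen after seeing the data. No paired analysis was possible because the labels give 1 sample per strain and time.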
